A study of Mus musculus with 2 samples.

Results

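The inhibitory receptors of T and NK cells and the transcription factor Tox were followed as a set of 8 genes: *Pdcd1* (PD-1), *Lag3*, *Havcr2* (Tim-3), *Tigit*, *Ctla4*, *Cd160*, *Entpd1* (CD39) and *Tox*. They were chosen by name, with earlier results of these data known, and all 8 had a row among the 32285 genes of the files. The unit of measurement was the unique molecular identifier (UMI), 1 tagged RNA molecule of a cell barcode. UMIs were summed over the barcodes of a cell class, and levels are given per 1000000 UMIs of that class (CPM).

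The 2 groups were C57BL/6 mice with the unaltered *Ptpn22* gene (PEP-WT) and mice homozygous for a CRISPR/Cas9-made *Ptpn22* allele that carries the arginine-to-tryptophan change linked to human autoimmunity (PEP-619WW). *Ptpn22* encodes PEP, a tyrosine phosphatase that restrains T cell receptor signaling, and the allele is carried by every cell of the mouse. Both groups were infected with the chronic strain LCMV-cl13, and no uninfected library was part of the comparison. The study states that at day 8 of infection splenocytes of 4 to 5 age- and sex-matched mice were pooled per genotype. They were sorted for live CD45+ cells and profiled with a 10x Genomics 3′ kit. The design asks how the allele alters immune cells early in an infection that exhausts T cells.

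Each genotype was deposited as 2 count tables, called run 1 and run 2 here, and each run held 1 library per genotype. With 1 library of pooled mice per genotype no test between genotypes is possible. Differences are therefore given with 95% intervals that cover counting error only and not the spread between mice. Intervals of levels and ratios also treat every UMI as independent. UMIs of a gene come grouped in cells, so the spread between cells is left out of these intervals. Run 1 held 14821 PEP-WT and 8576 PEP-619WW barcodes with median depths of 2832 and 3293 UMIs, and run 2 held 9539 and 11029 barcodes with median depths of 4837 and 3611 UMIs. The barcode totals of run 2, not those of the other run, are the cell numbers that the methods of the study state. Run 1 nevertheless supplied every value below unless run 2 is named, a choice made knowing that run 2 held very few PEP-WT T cells. Between the genotypes, 39 barcode sequences of run 1 were shared. The labels name the tissue as liver, a Jurkat cell line and tumor-infiltrating cells, against a design text that names splenocytes, so the tissue was checked by marker genes. No barcode held UMIs of all 3 hepatocyte genes. A sort for CD45+ cells leaves hepatocytes out in any tissue, so their absence cannot tell spleen from liver. Melanocyte genes (3 or more of 6 in the same barcode) were found in 256 PEP-WT and 27 PEP-619WW barcodes of run 2 and in 0 of run 1. Run 2 also held only 21 CD8 T, 7 CD4 T and 1 NK barcodes of PEP-WT, against 319, 280 and 415 of PEP-619WW. B cells made up 0.0210% and 3.91% of its barcodes, against 42.9% and 32.9% in run 1. Its cells therefore stood apart from those of run 1, and its values are given separately and never pooled.

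Inhibitory receptors are induced when a T cell meets antigen, and they limit signaling through phosphatases, competition for costimulatory ligands or, for CD39, the breakdown of extracellular ATP. Their transient expression marks activation, and their lasting joint expression, together with Tox, marks the exhausted state that chronic LCMV infection is known for. Tox is a nuclear protein needed for exhausted CD8 T cells to persist. NK cells share several of the receptors, among them Tim-3, TIGIT and CD160.

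The cell classes were defined by UMIs of marker genes. CD8 T cells had *Cd3e* and *Cd8b1*, CD4 T cells had *Cd3e* and *Cd4* without *Cd8b1*, and NK cells had *Ncr1* without *Cd3e*, each with no UMI of the B cell gene *Cd79a* or the monocyte gene *Csf1r*. In run 1 these gates held 1000 PEP-WT and 636 PEP-619WW CD8 T barcodes, 221 and 172 CD4 T barcodes, and 60 and 29 NK barcodes. A UMI of *Cd3d*, which the gates did not use, was found in 97.9% and 97.3% of the CD8 T barcodes and in 95.02% and 98.8% of the CD4 T barcodes. *Klrb1c* was found in 81.7% and 86.2% of the NK barcodes. Depth differed between genotypes, with median UMIs of 4678 and 6976 in CD8 T, 3950 and 5857 in CD4 T and 3041.5 and 3894 in NK barcodes. Shares of barcodes with a UMI are therefore given after every barcode had been reduced to 2000 randomly drawn UMIs. This left out 40 and 23 shallower CD8 T, 21 and 2 CD4 T, and 5 and 4 NK barcodes of PEP-WT and PEP-619WW.

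Of the 8 genes, 6 were at low levels in B cells and 2, *Entpd1* and *Ctla4*, were higher there. B cells were barcodes with *Cd79a* and *Ms4a1* and no UMI of *Cd3e*, *Csf1r*, *Ncr1* or the plasmacytoid dendritic gene *Siglech*. In these B cells *Pdcd1* was at 2.12 CPM in PEP-WT and 0.889 CPM in PEP-619WW. After thinning 0.229% and 0.240% of B cell barcodes held a *Pdcd1* UMI. The median depths of these B cell barcodes were 2676 and 3357.5 UMIs. *Lag3*, *Havcr2*, *Tigit*, *Cd160* and *Tox* were likewise at 4.78 CPM or less in B cells of either genotype. These levels were read as the background of free RNA, though low expression by the B cells themselves cannot be told apart from it. Mixed droplets with a *Cd3e* or *Ncr1* UMI were left out of the B cell class, so their part in the background was not measured. *Entpd1* lay above such a background in B cells, at 29.0 CPM in PEP-WT and 35.1 CPM in PEP-619WW, and was higher still in plasma cells (88.5 and 90.9 CPM) and neutrophils (97.7 and 88.5 CPM). *Ctla4*, known mainly from T cells, was found in B cells at 7.67 CPM in PEP-WT (95% interval 6.67 to 8.78, 210 UMIs) and 24.3 CPM in PEP-619WW (21.9 to 26.8, 382 UMIs), and in plasma cells at 14.8 and 29.9 CPM. The share of B cell barcodes with a *Ctla4* UMI was 1.02% and 2.28% after thinning, and 2.00% and 5.25% before it.

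**Figure D1:**
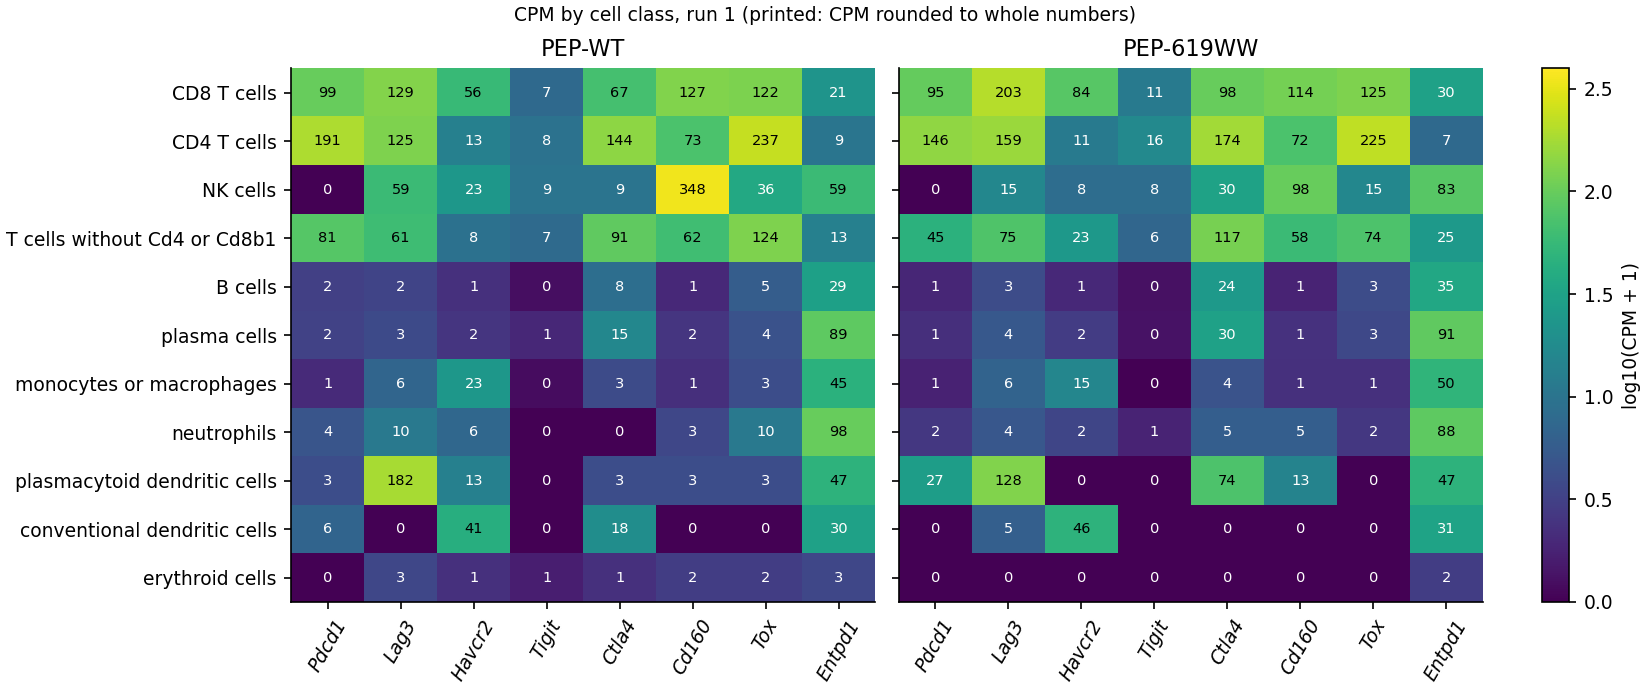
Level of each of the 8 genes (columns) in 11 cell classes (rows) of run 1, with PEP-WT on the left and PEP-619WW on the right; color gives log10 of CPM + 1 and the printed number is CPM rounded to a whole number, so that a 0 can be a level under 0.5. The T cell rows hold most of the *Pdcd1* and *Tox*, and *Entpd1* is spread over most classes. Plasmacytoid dendritic cells have a higher *Lag3* level than CD8 T cells in PEP-WT and a lower one in PEP-619WW.

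The order of the classes differed by gene. *Pdcd1*, the receptor of PD-L1 and PD-L2, was highest in CD4 T cells (191 CPM in PEP-WT and 146 CPM in PEP-619WW), followed by CD8 T cells (98.9 and 95.1 CPM). T cells with neither *Cd4* nor *Cd8b1* came next at 81.1 and 45.5 CPM. No *Pdcd1* UMI was found in the NK barcodes of either genotype, where 3 UMIs, the floor used for a count of 0, would have been 13.6 CPM in PEP-WT and 22.7 CPM in PEP-619WW. *Tox* was also highest in CD4 T cells, with 237 and 225 CPM against 122 and 125 CPM in CD8 T cells, while T cells with neither coreceptor gene were at 124 CPM (107 to 144) in the PEP-WT library and 73.7 CPM (56.2 to 94.9) in the other. The interval of that class overlapped the one of CD8 T cells in PEP-WT and lay below it in PEP-619WW. *Ctla4*, which competes with CD28 for CD80 and CD86, was also higher in CD4 (144 and 174 CPM) than in CD8 T cells (67.2 and 98.4 CPM). *Havcr2*, a receptor of galectin-9 and phosphatidylserine, had the opposite order, with 56.0 and 83.9 CPM in CD8 T cells and 12.7 and 10.9 CPM in CD4 T cells. In conventional dendritic cells *Havcr2* reached 41.4 and 46.4 CPM, from 7 and 9 UMIs, with intervals (16.7 to 85.4 and 21.2 to 88.1) that overlapped those of CD8 T cells. Monocytes or macrophages held 22.6 and 14.6 CPM of *Havcr2*.

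*Lag3*, a CD4-like receptor that binds MHC class II, was also a gene of plasmacytoid dendritic cells, the interferon-producing cells of the spleen. These held 182 CPM in PEP-WT (139 to 236, 58 UMIs over 41 barcodes) and 128 CPM in PEP-619WW (76.9 to 199, 19 UMIs over 20 barcodes), with overlapping intervals, against 129 and 203 CPM in CD8 T cells. In run 2, the 250 plasmacytoid dendritic barcodes of PEP-619WW held *Lag3* at 118 CPM (99.6 to 138) while the NK barcodes of the same library held 9.20 CPM. *Cd160*, a receptor of the herpesvirus entry mediator found on NK and CD8 T cells, was highest in the NK cells of PEP-WT (348 CPM) and in PEP-619WW was about as high in CD8 T (114 CPM) as in NK cells (98.3 CPM, 52.3 to 168). *Tigit*, which binds CD155 and competes with CD226, was counted by few UMIs, 44 and 59 in all CD8 T barcodes.

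In CD8 T cells, PEP-619WW had higher levels of *Lag3*, *Tigit*, *Havcr2*, *Ctla4* and *Entpd1*, and about the same levels of *Pdcd1*, *Tox* and *Cd160*. Past the 1.5-fold limit used for all genes, 2 of the 8 genes were higher in PEP-619WW (*Lag3* and *Tigit*) and 0 were lower. The background over the 10787 genes with at least 20 UMIs was 6.36% higher and 6.45% lower. The median log2 ratio of PEP-619WW over PEP-WT was 0.52 for the 8 genes and 0.03 for all genes, and 6 of the 8 ratios were above 0 against 53.5% of all genes. The limit cut closely, since *Lag3* was just inside it at 1.58-fold and *Havcr2* just outside it at 1.498-fold, with *Ctla4* at 1.46-fold and *Entpd1* at 1.41-fold. Under other gates, depths and means of the same libraries the number higher ran from 0, without the exclusion of *Cd79a* and *Csf1r* barcodes or with *Cd3e* at 2 or more UMIs, to 5.

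*Lag3* was at 129 CPM in PEP-WT (120 to 138, 849 UMIs) and 203 CPM in PEP-619WW (191 to 215, 1124 UMIs), a log2 ratio of 0.66 (0.53 to 0.79). After thinning, 18.0% of PEP-WT barcodes (15.6 to 20.6) and 30.5% of PEP-619WW barcodes (26.9 to 34.3) held a *Lag3* UMI, a difference of 12.5 points (8.14 to 16.9). Before thinning the shares were 37.6% and 59.1%. The intervals of the 2 libraries did not overlap on either scale. *Havcr2* was at 56.0 CPM (50.5 to 62.0) and 83.9 CPM (76.5 to 91.9), a log2 ratio of 0.58 (0.38 to 0.78). Its share was 23.3% and 38.2% before thinning and 10.5% and 12.7% after it, where the difference of 2.20 points had an interval (-0.99 to 5.59) that spans 0. The log2 ratio of *Havcr2* was 0.29 for the thinned UMIs and 0.79 for the mean over barcodes of CPM, the lowest and the highest of the settings tried within run 1.

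*Ctla4* was at 67.2 CPM (61.1 to 73.8) in PEP-WT and 98.4 CPM (90.3 to 107) in PEP-619WW CD8 T cells, a log2 ratio of 0.55 (0.37 to 0.73). The thinned shares were 9.06% and 16.2%, 7.09 points apart (3.74 to 10.6). The higher *Ctla4* level in the B cells of the same PEP-619WW library, given above, had the same direction, and its part in the CD8 T cell difference was not tested. *Entpd1*, the ectoenzyme that degrades ATP, was at 21.1 CPM (17.7 to 24.9) and 29.6 CPM (25.2 to 34.5), a log2 ratio of 0.49 (0.16 to 0.83), with thinned shares of 3.33% and 5.38% that resemble the 4.10% and 4.36% of B cells. *Tigit* was at 6.66 CPM (4.84 to 8.95) and 10.6 CPM (8.11 to 13.7), a log2 ratio of 0.68 with a wide interval (0.09 to 1.27).

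*Pdcd1* did not follow these genes. The PEP-WT library held 653 UMIs of it, or 98.9 CPM (91.5 to 107), and the PEP-619WW library 527, or 95.1 CPM (87.2 to 104), a log2 ratio of -0.06 (-0.22 to 0.11), and 13.1% and 14.0% of thinned barcodes held it. *Tox* was at 122 CPM (114 to 131) and 125 CPM (116 to 135), a log2 ratio of 0.04 (-0.11 to 0.18), with thinned shares of 16.8% and 16.2%. *Cd160* was at 127 CPM (118 to 135) and 114 CPM (105 to 123), a log2 ratio of -0.16 (-0.31 to -0.004), with thinned shares of 17.2% and 17.3%. The intervals of *Pdcd1* and *Tox* span 0 and that of *Cd160* just misses it.

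Run 2 did not show the same pattern. Its 21 PEP-WT CD8 T barcodes held *Lag3* at 175 CPM (122 to 243, 35 UMIs) and the 319 of PEP-619WW at 48.3 CPM (39.1 to 59.0, 95 UMIs), the reverse of run 1. *Havcr2* was at 210 and 53.9 CPM and *Pdcd1* at 245 and 116 CPM, also lower in PEP-619WW. *Ctla4* had the direction of run 1 by level, with 44.99 CPM in PEP-WT (20.6 to 85.4, 9 UMIs) and 108 CPM in PEP-619WW (93.7 to 123), but not by thinned share, at 12.5% and 11.4%. *Tox* was again level at 155 and 145 CPM. *Entpd1* was at 44.99 and 37.1 CPM, with thinned shares of 18.8% and 4.17%, 14.6 points lower in PEP-619WW (interval of the difference -38.9 to -2.03). *Tigit* had 3 and 6 UMIs, or 14.998 and 3.05 CPM. The higher *Lag3*, *Havcr2*, *Tigit* and *Entpd1* levels of PEP-619WW CD8 T cells are thus measurements of run 1 alone.

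On GRCm38, *Lag3* lies at chr6:124904361-124911705 (minus strand) and *Tox* at chr4:6686353-6991557 (minus strand), *Cd160* at chr3:96798763-96829351 (minus strand) and *Entpd1* at chr19:40612366-40741602 (plus strand), all 4 annotated as protein-coding. Promoter windows of *Lag3* and *Tox* were not used here. For 3 of the genes that were higher in PEP-619WW CD8 T cells and for *Pdcd1*, which was not, the 250 bases before the RefSeq transcription start (build GRCm38.p6) are printed to set the regulatory sequence beside the levels. They are written 5′ to 3′ on the strand of the gene, with matches to the core of the NFAT motif (GGAAA, or TTTCC on the other strand) and to the AP-1 motif (TGANTCA, which reads the same on both strands) in capitals. NFAT and AP-1 are the factors that T cell receptor signaling activates.
Pdcd1 (chr1:94052554-94052803, minus strand): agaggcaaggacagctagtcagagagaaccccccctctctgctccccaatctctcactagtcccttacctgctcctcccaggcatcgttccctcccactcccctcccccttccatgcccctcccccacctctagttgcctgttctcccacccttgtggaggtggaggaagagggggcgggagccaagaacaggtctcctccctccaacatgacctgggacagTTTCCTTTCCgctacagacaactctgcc
Havcr2 (chr11:46454681-46454930, plus strand): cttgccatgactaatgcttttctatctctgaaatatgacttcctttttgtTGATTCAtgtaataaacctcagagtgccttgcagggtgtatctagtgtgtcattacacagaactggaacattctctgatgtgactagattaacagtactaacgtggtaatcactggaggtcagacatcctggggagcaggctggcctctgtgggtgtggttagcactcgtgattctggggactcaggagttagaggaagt
Tigit (chr16:43664185-43664434, minus strand): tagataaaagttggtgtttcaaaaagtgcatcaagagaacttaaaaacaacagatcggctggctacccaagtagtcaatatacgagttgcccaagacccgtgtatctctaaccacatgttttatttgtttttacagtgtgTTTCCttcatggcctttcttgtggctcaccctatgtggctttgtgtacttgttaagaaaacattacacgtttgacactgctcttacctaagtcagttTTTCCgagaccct
Ctla4 (chr1:60908775-60909024, plus strand): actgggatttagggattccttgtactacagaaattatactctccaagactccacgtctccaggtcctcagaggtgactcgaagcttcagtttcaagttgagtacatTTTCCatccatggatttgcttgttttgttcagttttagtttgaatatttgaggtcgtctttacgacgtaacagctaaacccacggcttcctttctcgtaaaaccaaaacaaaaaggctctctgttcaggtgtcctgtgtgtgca
The *Pdcd1* and *Tigit* windows held 2 NFAT cores each, which in *Pdcd1* lie side by side, *Ctla4* held 1 and *Havcr2* held 0 but 1 AP-1 match. *Entpd1*, also higher in PEP-619WW, and *Cd160*, which was not, had 2 windows each that are not printed. Those of *Entpd1* held 0 and 2 NFAT cores and those of *Cd160* 1 and 0, with no AP-1 match. Of 32851 mouse promoter windows of this length, 55.6% held the NFAT core and 6.75% the AP-1 motif, so these matches describe the sequences and mark no site of binding.

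**Figure D2:**
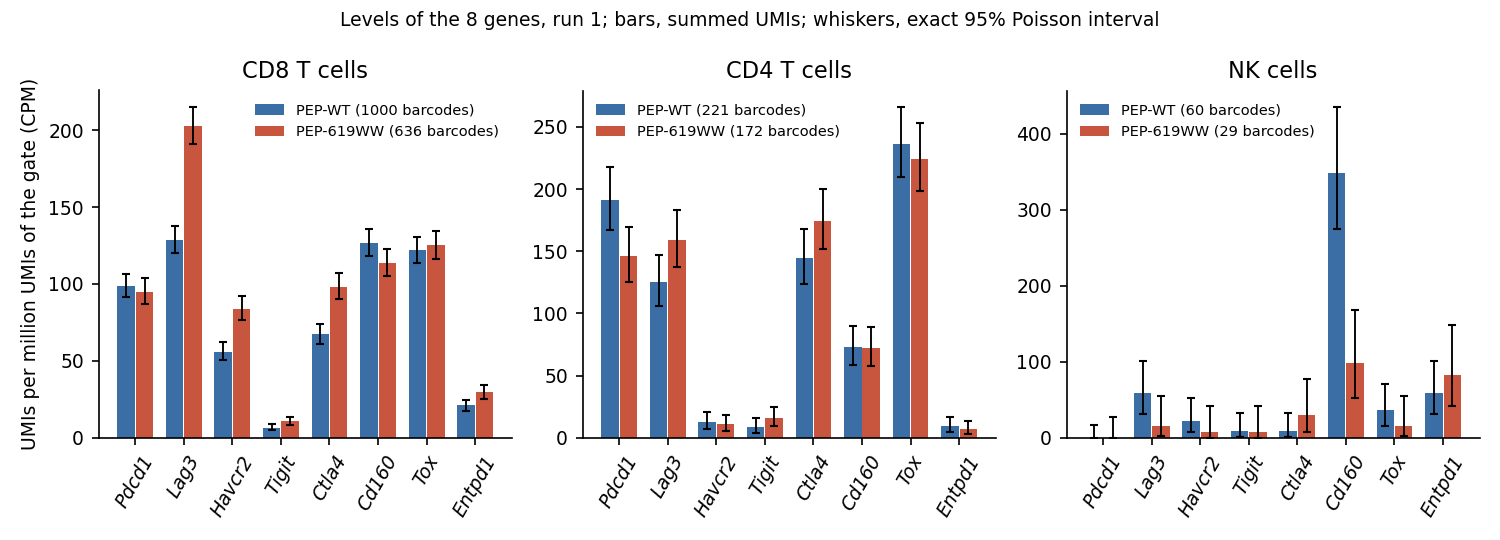
Summed UMIs (CPM, vertical axis, scaled apart in each panel) of the 8 genes in the CD8 T, CD4 T and NK barcodes of run 1, PEP-WT in blue and PEP-619WW in red; whiskers are exact 95% Poisson intervals of the count and 1 library stands behind each bar. *Lag3*, *Havcr2* and *Ctla4* are separated between genotypes in CD8 T cells, *Pdcd1* and *Tox* are not, and *Cd160* is lower in the 29 PEP-619WW NK barcodes than in the 60 of PEP-WT.

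The make-up of the CD8 T gate differed between the libraries as well. *Gzmb*, the granzyme of cytotoxic effector cells, was found in 57.3% of thinned PEP-WT barcodes and 76.5% of those of PEP-619WW, against 1.58% and 2.88% of B cells. *Tcf7*, the factor of naive, memory and stem-like T cells, was found in 23.2% and 9.46%. The cycling gene *Mki67* was found in 19.3% and 19.7%. Markers of other cells in the gate differed too, with 5 erythroid genes summing to 2305 CPM in PEP-WT and 81.2 CPM in PEP-619WW, and 5 neutrophil genes to 1916 and 901 CPM. B cell genes summed to 546 and 420 CPM, and 5 myeloid genes to 819 and 550 CPM. The share of thinned barcodes with a UMI of the list had the opposite order for the neutrophil genes, at 15.9% in PEP-WT and 24.0% in PEP-619WW (30.4% and 62.3% without thinning). For the erythroid genes it was 34.3% and 8.65%, and for the myeloid genes 41.5% and 38.7% (65.2% and 77.4% without thinning). When barcodes with UMIs of further B cell, myeloid, neutrophil, erythroid and plasmacytoid dendritic genes were left out as well, the log2 ratio was 0.68 for *Lag3*, 0.49 for *Havcr2*, 0.69 for *Ctla4* and -0.03 for *Pdcd1*.

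Subsets of CD8 T barcodes here and of CD4 T barcodes below were set on UMIs before thinning. Membership therefore depends on depth, which differed between PEP-WT and PEP-619WW. Median depths were 5086 and 7157 UMIs with *Gzmb*, and 4610 and 7874 with *Tcf7*. Within the barcodes that held a *Gzmb* UMI (638 of PEP-WT and 545 of PEP-619WW), *Lag3* was at 138 and 208 CPM, a log2 ratio of 0.59 (0.45 to 0.74), and *Ctla4* at 70.8 and 101 CPM, a log2 ratio of 0.51 (0.30 to 0.71). *Havcr2*, in contrast, was nearer between genotypes there, at 77.2 and 93.4 CPM, a log2 ratio of 0.28 (0.07 to 0.48). *Entpd1* was at 26.9 and 33.6 CPM with *Gzmb*, and its interval spans 0 (0.32, -0.02 to 0.67). In the barcodes with a *Tcf7* UMI, 349 of PEP-WT and 108 of PEP-619WW, *Havcr2* was low, at 15.8 and 18.5 CPM, against 75.4 and 99.8 CPM in those without. *Lag3* was at 99.7 and 146 CPM with *Tcf7* (log2 ratio 0.55, 0.24 to 0.85) and at 142 and 217 CPM without it (0.60, 0.46 to 0.75). *Entpd1* had 15 and 5 UMIs with *Tcf7* (-0.60, -2.41 to 0.94) and 124 and 159 without it (0.36, 0.01 to 0.71). *Tox* was at 113 and 117 CPM with *Gzmb*, and at 147 and 170 CPM with *Tcf7* (log2 ratio 0.21, -0.06 to 0.48). In the barcodes with *Ccr7* or *Lef1* and no *Gzmb*, a set chosen after values were seen (247 and 60 barcodes), *Tox* was higher in PEP-619WW, at 108 and 187 CPM from 138 and 104 UMIs (log2 ratio 0.80, 0.42 to 1.17), so it was not level in every subset. This set was 24.7% of the PEP-WT gate and 9.43% of the PEP-619WW gate, with median depths of 3686 and 6735 UMIs. *Lag3* was at 78.9 and 167 CPM there (1.09, 0.66 to 1.51) and the interval of *Pdcd1* spans 0 (0.42, -0.13 to 0.96). Barcodes without *Mki67* had log2 ratios of 0.56 for *Lag3*, 0.64 for *Havcr2*, 0.75 for *Ctla4* and 0.78 for *Entpd1*, and those with *Mki67* had 0.76, 0.55, 0.36 and 0.22. *Pdcd1* was lower in PEP-619WW among barcodes with *Mki67* (114 and 97.0 CPM, -0.23, -0.46 to -0.01), and its interval spans 0 among those without (0.19, -0.07 to 0.45).

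**Figure D3:**
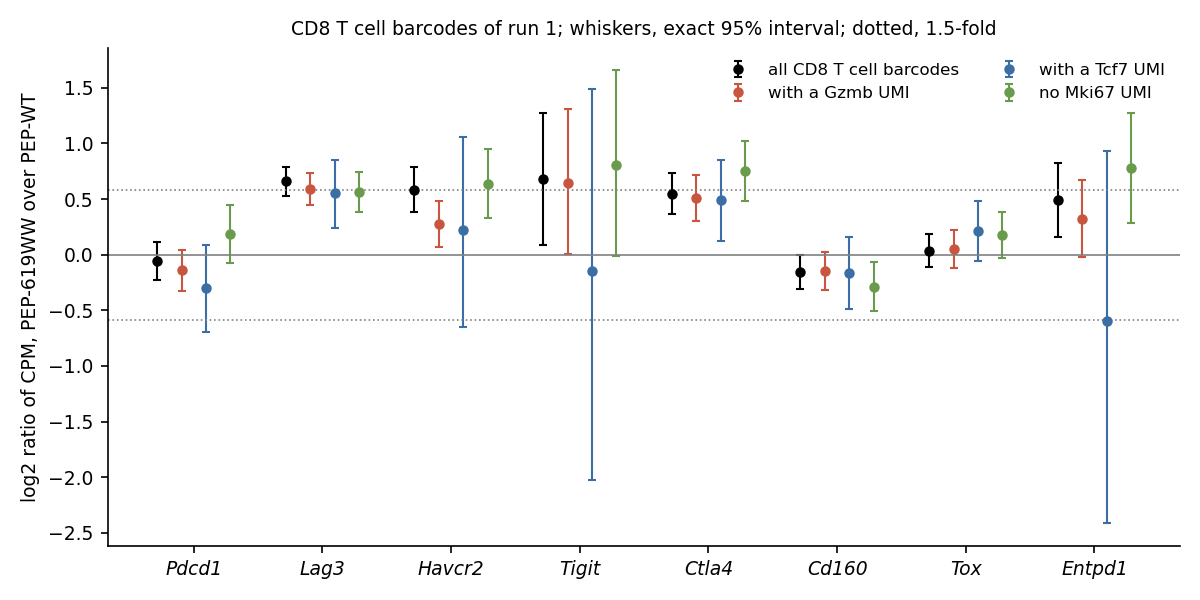
Log2 ratio of CPM, PEP-619WW over PEP-WT (vertical axis), of the 8 genes in all CD8 T barcodes of run 1 (black), in those with a *Gzmb* UMI (red), in those with a *Tcf7* UMI (blue) and in those without *Mki67* (green); whiskers are exact 95% intervals for counting error and dotted lines mark 1.5-fold. *Lag3* and *Ctla4* lie above 0 with their whole interval in all 4 sets, *Havcr2* is closer to 0 among barcodes with *Gzmb* (0.28) than in the whole gate (0.58), and the intervals of *Pdcd1* and *Tox* span 0 in the 4 sets drawn.

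Co-detection asked whether a receptor was found in the same cells as *Pdcd1*. After thinning, 126 of 960 PEP-WT and 86 of 613 PEP-619WW CD8 T barcodes held *Pdcd1*. *Tox* was the gene most tied to it in PEP-619WW, found in 37.2% of barcodes with *Pdcd1* and 12.7% of those without, 24.5 points apart (14.5 to 35.4). In PEP-WT the *Tox* shares were 35.7% and 13.9%, 21.8 points apart (13.6 to 30.8). *Lag3* was found in 39.7% against 14.8% of PEP-WT barcodes, 24.9 points apart (16.4 to 33.9), and in 43.0% against 28.5% of PEP-619WW barcodes, 14.6 points apart (3.84 to 25.7). Among barcodes without *Pdcd1* the *Lag3* share was higher in PEP-619WW than in PEP-WT, with intervals of 24.6 to 32.5 and 12.4 to 17.3, while among barcodes with *Pdcd1* the intervals overlapped (32.4 to 54.2 and 31.1 to 48.8). Whether the gaps of the genotypes differ was not tested, and their intervals overlap.

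*Cd160* also went with *Pdcd1*, by 11.3 points in PEP-WT (3.82 to 19.9) and 12.3 points in PEP-619WW (3.33 to 23.0). *Ctla4* was 7.84 points apart in PEP-WT (2.11 to 15.4) and 5.56 points in PEP-619WW, where the interval spans 0 (-2.43 to 15.7). *Havcr2* lacked such a gap, as did *Tigit* (0.75 and 1.40 points) and *Entpd1* (0.73 and 1.85 points), which were found in few barcodes, all with intervals that span 0 in both genotypes. *Havcr2* was found in 11.9% of PEP-WT barcodes with *Pdcd1* and 10.3% of those without, and in 12.8% and 12.7% of PEP-619WW barcodes, with intervals of the difference from -3.49 to 8.66 and from -6.24 to 9.13 points. Without thinning, *Havcr2* was found in 39.2% against 17.0% and in 50.6% against 30.7%, but barcodes with a *Pdcd1* UMI were then deeper, with median depths of 7811 against 3957 UMIs in PEP-WT and 9285 against 6191 in PEP-619WW. The unthinned *Tox* shares were 66.1% against 19.5% and 59.8% against 24.2%. At 1000 UMIs per barcode the *Tox* gap was 9.38 points in PEP-WT (2.08 to 19.97) and 4.52 points in PEP-619WW (-3.11 to 16.5), and the *Lag3* gap 11.1 points (2.82 to 22.2) and 13.7 points (2.37 to 27.3). At that depth *Havcr2* did have a gap in PEP-WT, of 8.87 points (2.75 to 18.7), but not in PEP-619WW (-4.15, -7.81 to 4.89), and the *Cd160* gaps of 5.26 (-1.78 to 15.7) and 2.56 points (-3.89 to 13.8) spanned 0. In run 2, the 48 PEP-619WW CD8 T barcodes with *Pdcd1* held *Tox* in 35.4%, against 11.6% of the 216 without, 23.8 points apart (10.9 to 38.4), and *Lag3* in 22.9% against 7.41%, 15.5 points apart (4.99 to 29.4). *Cd160* was 9.72 points apart there (0.71 to 22.9), and *Entpd1*, unlike in run 1, 7.64 points (0.96 to 19.5), from 5 of 48 against 6 of 216 barcodes.

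**Figure D4:**
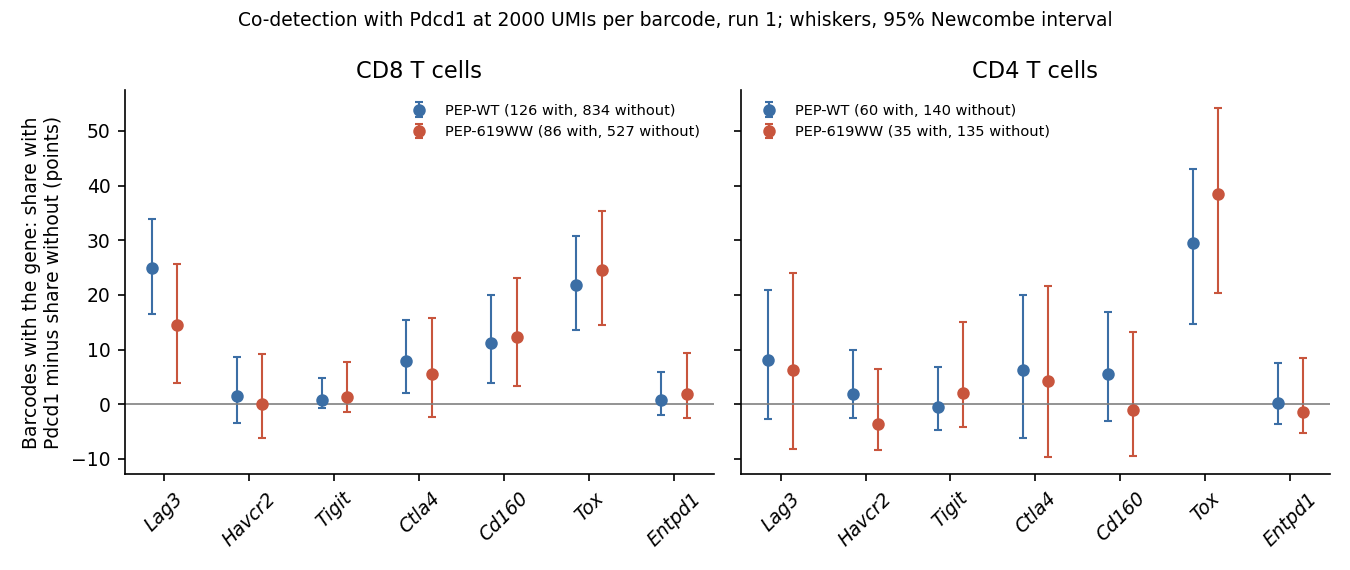
Share of thinned run 1 barcodes with each gene among those with a *Pdcd1* UMI minus the share among those without (points, vertical axis), in CD8 T cells (left) and CD4 T cells (right), PEP-WT in blue and PEP-619WW in red; whiskers are 95% Newcombe intervals. In CD8 T cells *Lag3*, *Cd160* and *Tox* lie above 0 with their whole interval in both genotypes and *Havcr2* does not, and in CD4 T cells only *Tox* does.

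Among the 749 genes with at least 30 thinned UMIs in the *Pdcd1* barcodes of each genotype, *Tox* had the largest ratio of level between CD8 T barcodes with and without *Pdcd1*, by the geometric mean of the genotypes. Its thinned level was 2.86 times higher in PEP-WT and 3.27 times in PEP-619WW. *Ccl3*, a chemokine, followed at 2.73 and 2.58 times, then *Lag3* at 3.27 and 1.56 times, *Ifng* (interferon gamma) at 1.74 and 2.07 times and *Ccl4* at 1.59 and 2.18 times. *2310001H17Rik*, *Batf*, *Bcl2a1b* and *Pgam1* were also among the 10 genes with the largest ratios. Of the 749 genes, 1.34% reached 1.5 times in both genotypes. Of the 8 genes followed here, *Tox* and *Lag3* alone had enough UMIs to be compared with *Pdcd1*, and both reached it. The minimum was set in the *Pdcd1* barcodes, which favors genes that are high there, so the pair is a description of these 2 genes and the others were not compared. In CD4 T cells 5.21% of 288 genes reached 1.5 times in both genotypes, and *Tox* (2.01 and 3.10 times) was the 1 gene of the set with enough UMIs. The largest geometric means there were those of *Ccl3*, *Ccl4*, *Tox*, *Ccl5* and *Maf* (2.33 and 2.08 times), of which *Ccl5* reached 4.20 times in PEP-WT and 1.28 times in PEP-619WW.

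The number of the 7 receptors found in 1 barcode was higher in PEP-619WW CD8 T cells of run 1, and lower in those of run 2. After thinning, 52.1% of PEP-WT barcodes (48.9 to 55.3) and 37.0% of PEP-619WW barcodes (33.2 to 41.0) held none of the 7. A single receptor was found in 29.6% and 38.2%, a pair in 12.9% and 17.1%, and 3 or more in 5.42% (4.07 to 7.04) and 7.67% (5.69 to 10.1). Barcodes with 4 or more were rare, 5 of 960 in PEP-WT and 16 of 613 in PEP-619WW. The intervals of the genotypes were apart for 0 receptors, for 1 and for 4 or more, and overlapped for 2 and for 3. Gene by gene, the thinned share in PEP-619WW was higher by 12.5 points for *Lag3* and 7.09 for *Ctla4*. It was higher by 2.20 points for *Havcr2*, 2.05 for *Entpd1*, 1.35 for *Tigit*, 0.90 for *Pdcd1* and 0.10 for *Cd160*. In run 2, none of the 7 was found in 2 of 16 PEP-WT barcodes (12.5%, 1.55 to 38.3) and in 149 of 264 of PEP-619WW (56.4%, 50.2 to 62.5), and 4 or more in 3 of 16 and 0 of 264, the reverse of run 1 with intervals apart. The *Tox* share also differed with the number of receptors. In PEP-WT its share was 9.20% with 0 receptors, 19.7% with 1, 32.3% with 2 and 29.8% with 3, and in PEP-619WW it was 8.81%, 17.1%, 24.8% and 35.5%. With 4 or more receptors *Tox* was found in 5 of 5 PEP-WT barcodes and in 2 of 16 of PEP-619WW (12.5%, 1.55 to 38.3), so the share was not highest at the largest number of receptors in PEP-619WW.

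**Figure D5:**
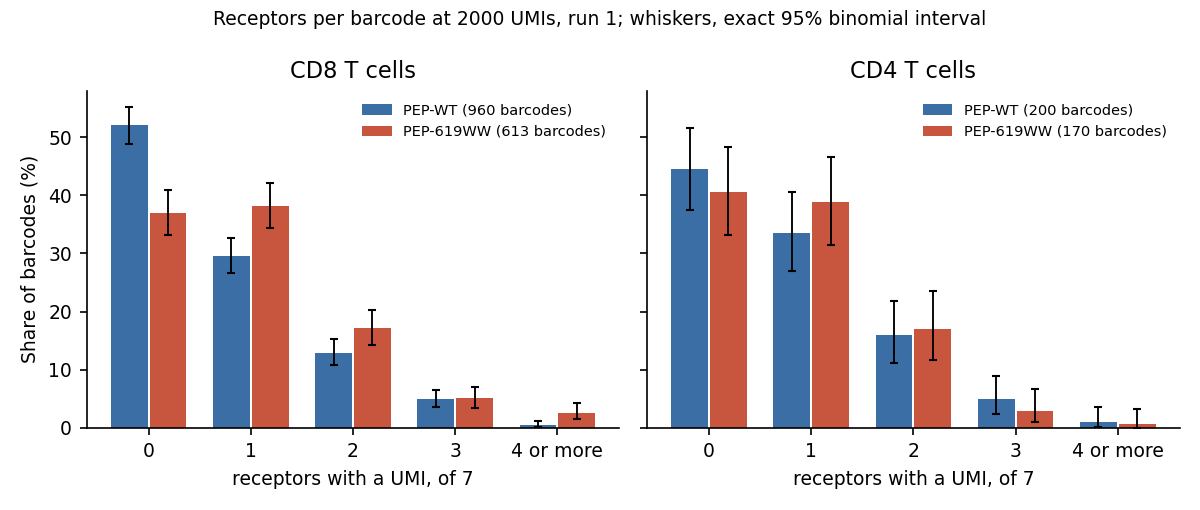
Share of thinned run 1 barcodes (percent, vertical axis) by the number of the 7 receptors with a UMI (horizontal axis), in CD8 T cells (left) and CD4 T cells (right), PEP-WT in blue and PEP-619WW in red; whiskers are exact 95% binomial intervals. PEP-619WW has fewer CD8 T barcodes without any receptor (37.0% against 52.1%), while the intervals of the genotypes overlap at every number in CD4 T cells.

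In CD4 T cells, *Pdcd1* was lower in PEP-619WW and *Lag3* slightly higher, both by less than 1.5-fold over all UMIs, though the thinned UMIs gave *Lag3* a log2 ratio of 0.82, past that limit. Of 7 genes with enough UMIs, 1 was past the limit on the higher side (*Tigit*, 10 and 19 UMIs, log2 ratio 0.91 with an interval of -0.26 to 2.18) and 0 on the lower. The background over 8233 genes was 10.8% higher and 10.5% lower, and the median log2 ratio was -0.01 for the 7 genes and -0.01 for all genes. The 226 *Pdcd1* UMIs of PEP-WT came to 191 CPM (167 to 218) and the 174 of PEP-619WW to 146 CPM (125 to 169), a log2 ratio of -0.39 (-0.68 to -0.10). After thinning, it was found in 60 of 200 barcodes in PEP-WT and in 35 of 170 in PEP-619WW, a difference of -9.41 points (-18.0 to -0.47). Without the exclusion of *Cd79a* and *Csf1r* barcodes the log2 ratio of *Pdcd1* was -0.01. *Lag3* was at 125 and 159 CPM, a log2 ratio of 0.35 (0.03 to 0.67), with thinned shares of 16.0% and 23.5%. *Ctla4* was at 144 and 174 CPM (log2 ratio 0.27, -0.03 to 0.57), *Tox* at 237 and 225 CPM and *Cd160* at 72.7 and 72.1 CPM, each with an interval that spans 0. Under other settings within run 1 the *Tox* ratio ran from -0.21 to 0.39. *Havcr2* had 15 and 13 UMIs (log2 ratio -0.22, -1.41 to 0.95, and -0.40 to 0.85 under those settings), and *Entpd1*, with 11 and 8, was below the minimum.

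The *Pdcd1* difference was also present among CD4 T barcodes with genes of follicular helper cells (*Cxcr5*, *Bcl6* or *Il21*, no *Foxp3*), the helpers of germinal center B cells, which carry much PD-1. These 61 PEP-WT and 55 PEP-619WW barcodes held *Pdcd1* at 292 and 208 CPM, a log2 ratio of -0.49 (-0.92 to -0.07), while *Tox* was level at 348 and 335 CPM and *Lag3* at 183 and 188 CPM. In barcodes with *Foxp3*, the factor of regulatory T cells, *Ctla4* was at 228 CPM in PEP-WT and 525 CPM in PEP-619WW (log2 ratio 1.20, 0.46 to 2.00), from 21 UMIs of 8 barcodes and 58 UMIs of 14. *Lag3* in the same barcodes was at 54.3 and 181 CPM from 5 and 20 UMIs. The follicular gene list summed to 627 and 473 CPM in the CD4 T gate and the regulatory list to 379 and 381 CPM. The effector list summed to 958 and 2204 CPM and the cycling list to 1170 and 700 CPM there, with *Mki67* in 14.0% and 5.88% of thinned barcodes. Erythroid genes summed there to 2602 and 41.1 CPM and neutrophil genes to 129 and 1815 CPM, and the part of these lists in the *Pdcd1* difference was not tested. *Tox* was also found more often with *Pdcd1* in the CD4 T cells of run 1, in 34 of 60 against 38 of 140 PEP-WT barcodes (29.5 points, 14.7 to 43.1) and 21 of 35 against 29 of 135 PEP-619WW barcodes (38.5 points, 20.4 to 54.2). In run 2 the gap in PEP-619WW CD4 T cells was smaller, with *Tox* in 9 of 36 barcodes with *Pdcd1* against 31 of 199 without (9.42 points), and its interval spans 0 (-3.18 to 26.1). The *Pdcd1* level in run 2 had the opposite direction to run 1, at 52.4 CPM in PEP-WT (4 UMIs over 7 barcodes) and 97.8 CPM in PEP-619WW (176 UMIs), a log2 ratio of 0.90 with a wide interval that spans 0 (-0.48 to 2.79). Its thinned share there had the direction of run 1, at 28.6% of 7 and 15.3% of 235 barcodes (-13.3 points, -49.0 to 7.74).

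NK cells were few, and 2 of the 8 genes had enough UMIs to compare, *Cd160* and *Entpd1*. *Cd160* was at 348 CPM in PEP-WT (275 to 435, 77 UMIs over 60 barcodes) and 98.3 CPM in PEP-619WW (52.3 to 168, 13 UMIs over 29 barcodes), a log2 ratio of -1.83 (-2.80 to -0.97). It was found in 32.7% and 8.00% of thinned barcodes, a difference of -24.7 points (-39.1 to -4.55). It was the 1 gene of the pair past 1.5-fold lower, and 0 were past it higher, where the background over 2605 genes was 17.4% lower and 14.2% higher. *Entpd1* was at 58.8 and 83.2 CPM from 13 and 11 UMIs. In the NK gate, 5 neutrophil genes summed to 23451 CPM in PEP-619WW against 76.9 CPM in PEP-WT, and erythroid genes to 431 against 15123 CPM. With the further exclusion of other cell types the log2 ratio of *Cd160* was -3.02. The other genes had 13 UMIs or fewer in either genotype. In run 2, the 415 PEP-619WW NK barcodes held *Cd160* at 57.6 CPM (46.6 to 70.5) and *Tox* at 42.3 CPM, with 1 PEP-WT barcode to set beside them.

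Other genes of the pathway were followed as lists, counted past 1.5-fold in CD8 T cells. The background over all genes there was 6.36% higher and 6.45% lower. Of 21 transcription factors with enough UMIs, 5 were higher in PEP-619WW and 4 lower, with a median log2 ratio of 0.20. The higher ones were *Bhlhe40* (121 and 224 CPM, log2 ratio 0.89), *Maf* (27.7 and 48.4 CPM, 0.80), the receptor-induced *Nr4a1* (21.4 and 36.3 CPM, 0.76), *Id2* and *Prdm1*, several of them factors of effector differentiation. The lower ones were *Tcf7* (137 and 65.3 CPM, -1.07), *Id3* (45.1 and 22.6 CPM), *Bach2* (15.3 and 8.12 CPM, -0.91) and *Eomes* (56.5 and 33.2 CPM, -0.77), of which the first 3 are known from naive, memory or stem-like T cells. *Tox* was level over the whole gate.

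Of 18 further co-receptors, 1 was higher (*Cd96*, a receptor of CD155 like TIGIT, 45.3 and 70.6 CPM, log2 ratio 0.64) and 0 were lower, with a median log2 ratio of -0.001. Over all genes 6.36% were higher and 6.45% lower, and counts of 1 in lists this short lie near that. *Vsir* (VISTA) was at 71.6 and 97.1 CPM, the costimulator *Icos* at 100 and 133 CPM and *Slamf6*, found on stem-like T cells, at 118 and 85.7 CPM, all within the limit. Of 9 ligands, 1 was higher (*Cd80*, a ligand of CTLA-4, 6.97 and 13.0 CPM) and 0 were lower, and *Cd274* (PD-L1) was at 33.0 and 33.9 CPM. Of 15 signaling partners 0 were past the limit in either direction, the ligase gene *Cblb* reaching 118 and 168 CPM. The 7 adenosine pathway genes with enough UMIs also had 0 past it, with *Nt5e* (CD73), which acts after CD39, at 13.5 and 9.75 CPM. In the CD8 T cells of run 2, 6 of 20 transcription factors were higher and 3 lower (median log2 ratio -0.21). Of 17 co-receptors, 7 were higher and 3 lower there. The background there was 25.6% higher and 14.8% lower over all genes, and the transcription factor counts lie near it. A list gene with 0 UMIs in 1 genotype counted as unchanged, while the background entered it at the floor of 3 UMIs. The run 2 counts and the background are thus not fully like for like.

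In CD4 T cells, where 10.8% of all genes were past the limit higher and 10.5% lower, 4 of 21 transcription factors were higher and 2 lower, with a median log2 ratio of 0.05. The higher ones were *Id2* (139 and 319 CPM, log2 ratio 1.20), *Irf4* (0.95), *Tbx21* (0.91) and *Nfatc2* (0.80), and the lower ones *Nr4a3* (29.6 and 13.4 CPM, -1.14) and *Zeb2* (-0.74). Of 13 co-receptors 2 were higher (*Cd226* and *Cd200r1*) and 1 lower (*Tnfrsf9*). *Cd226*, the activating partner of TIGIT, was at 32.1 and 70.4 CPM (1.13, 0.56 to 1.73) and *Tnfrsf9* (4-1BB) at 143 and 62.0 CPM (-1.20, -1.62 to -0.80). Of 6 ligands 1 was higher (*Pvr*, the gene of CD155) and 1 lower, the latter *Pdcd1lg2* (PD-L2) at 51.5 and 26.8 CPM (-0.94, -1.61 to -0.30). Of 15 signaling partners 0 were past the limit, and of 6 adenosine genes 1 was higher (*Enpp1*). Counts of 1 or 2 in lists this short lie near that background. In run 2, with 7 PEP-WT CD4 T barcodes, 9 of 15 signaling partners were higher and 1 lower, over 23.6% and 17.1% of all genes. As in the CD8 T cells of run 2, that count and that background treat genes with 0 UMIs in 1 genotype by different rules. In NK cells, where the background was 14.2% higher and 17.4% lower, 0 of 3 ligands were past the limit, and no adenosine gene had enough UMIs. Of 7 co-receptors 1 was higher (*Vsir*) and 1 lower, of 11 transcription factors 1 was higher (*Nr4a2*) and 2 lower (*Tcf7* and *Zeb2*), and of 11 signaling partners 1 was higher (*Cblb*) and 2 lower (*Ptpn6* and *Grb2*). The lower co-receptor was *Cd7*, an immunoglobulin-family receptor of T and NK cells, at 692 and 257 CPM (log2 ratio -1.43, -2.01 to -0.88).

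Over the 11 cell classes of both genotypes, 22 points in all that share 2 libraries, the genes most like each member in level were described by Pearson's r of log2(CPM + 1). *Pdcd1* was most like *Cd5* (r = 0.98), an inhibitory co-receptor of T cells. *Tox* was most like *Tcf7* (r = 0.96), *Tigit* like *Crtam* (r = 0.96), *Cd160* like *Gm2682* and *Tnfrsf9* (both r = 0.97) and *Lag3* like *Runx2os1* (r = 0.92). The closest genes to *Ctla4* (*Cxcr3*, r = 0.90), *Entpd1* (*Rhob*, r = 0.88) and *Havcr2* (*Acot7*, r = 0.86) were less alike.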

How the data were processed

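By the study's account, live CD45+ splenocytes pooled within each genotype were profiled by 10x Genomics 3′ single-cell RNA sequencing. The cells of run 2 stood apart from those of run 1 by marker genes, and the tissue of run 2 is not settled here. The hepatocyte genes could not settle that of run 1 either. The deposited files hold UMI counts per gene and barcode, which the authors made with Cell Ranger (6.0.0 per the submitters' processing notes; the study's methods name another version) on the mm10 mouse transcriptome, with no normalization. Of 32285 genes, 32158 matched a symbol of the annotation, and no row lacked a gene. From these counts, cell classes were set by marker UMIs and the UMIs of each class were summed per genotype. Doublets were not removed in the values given first. Levels are given with exact Poisson intervals, shares with exact binomial (Clopper-Pearson) intervals, ratios with exact conditional intervals and differences of shares with Newcombe intervals, at 95%, all covering counting error only. Thinning drew 2000 UMIs per barcode once. With 1 library per genotype and run no p-value was computed. A gene was compared from 20 UMIs over both genotypes and counted as past the limit at 1.5-fold. All 8 genes are named, and of each gene list those with at least 50 UMIs and the largest ratios. The members and lists were chosen with earlier results of these data known. *Cd274*, and genes past the limit outside this rule (*Id2*, *Prdm1* and *Eomes* in CD8 T, *Nfatc2*, *Cd200r1*, *Pvr* and *Enpp1* in CD4 T, and *Vsir*, *Nr4a2*, *Tcf7*, *Ptpn6*, *Grb2* and *Cblb* in NK cells) were named after their values were seen. Promoter sequences were taken from RefSeq, where 6 of the 8 genes had an entry. Alternatives varied the run, gates, doublets, depth, denominator and minimum. The work used matplotlib 3.10.9, scanpy 1.11.5 (for Scrublet), pandas 2.3.3, scipy 1.17.1 and numpy 2.4.6 under Python 3.11.15. The ratio intervals were tried on simulated Poisson counts of the CD8 T and CD4 T gates. Those counts hold no spread between cells, mice or libraries, so the trial cannot show whether the intervals are wide enough for these data.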

Additional observations from a re-analysis of the deposited data

How the results depend on the processing

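Of 215 log2 ratios of the 8 genes recomputed under 13 alternatives within run 1, 196 stayed inside their counting intervals and 19 moved outside. The alternative with no minimum of UMIs leaves each of these ratios unchanged by construction. Division by the median ratio of all genes shifts every ratio of a gate by the same small amount. These medians were 0.03, -0.01 and -0.07 on the log2 scale in CD8 T, CD4 T and NK cells. The number that stayed inside is therefore in part fixed in advance. In CD8 T cells *Lag3* ranged from 0.47 to 0.76, *Ctla4* from 0.33 to 0.94, *Tigit* from 0.41 to 1.28, *Entpd1* from 0.25 to 0.73, *Havcr2* from 0.29 to 0.79, *Pdcd1* from -0.35 to 0.21 and *Tox* from -0.20 to 0.13. In CD4 T cells *Pdcd1* ranged from -0.48 to -0.01, the latter without the exclusion of *Cd79a* and *Csf1r* barcodes, *Lag3* from 0.18 to 0.82, *Havcr2* from -0.40 to 0.85 and *Tox* from -0.21 to 0.39, and in NK cells *Cd160* ranged from -3.02 to -1.05.

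The counts past 1.5-fold depended on the setting, since several ratios lie near it. For CD8 T cells the number higher was 0 without that exclusion and with *Cd3e* at 2 or more UMIs, 4 after thinning (*Lag3*, *Tigit*, *Ctla4*, *Entpd1*), and 5 without the 10% of barcodes with most UMIs or with the mean over barcodes (these and *Havcr2*), where the share of all genes higher was 5.95%, 6.61%, 9.54%, 7.43% and 8.46% in that order of settings. For CD4 T cells it was 4 of 8 without the exclusion, 2 with the mean over barcodes, 1 after thinning (*Lag3*, in place of *Tigit*) and 0 of 6 without the deepest barcodes, over 11.7%, 13.0%, 12.9% and 11.6% of all genes. For NK cells it was 1 without the exclusion or without the highest Scrublet scores (*Entpd1*), over 13.1% and 13.5% of all genes, and with no minimum of UMIs 1 was higher (*Ctla4*) and 4 lower, over 24.1% and 16.3%.

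With run 2, 1 gene was higher (*Ctla4*) and 3 lower (*Pdcd1*, *Lag3*, *Havcr2*) in CD8 T cells, 1 higher (*Pdcd1*, 4 PEP-WT UMIs) and 2 lower (*Lag3* and *Havcr2*, 6 and 8 PEP-WT UMIs) in CD4 T cells, while NK cells gave no value with 1 PEP-WT barcode. The backgrounds were 25.6% higher and 14.8% lower in CD8 T and 23.6% and 17.1% in CD4 T cells. *Lag3* in CD8 T cells was reversed, at -1.86. Members more often found with *Pdcd1* were counted by the sign of the difference, whatever its interval, and with no minimum of barcodes. In PEP-WT CD8 T barcodes they numbered 4 of 7 in run 2 and 7 in run 1. Of all genes found in at least 5 barcodes, 45.5% and 48.7% were so. That minimum was met by 1 member in run 2 and 7 in run 1, so the count and share of run 2 are not like for like. *Cd160*, *Tox* and *Tigit* turned negative in run 2, at -7.27, -27.3 and -18.2 points over 5 barcodes with *Pdcd1*. The cause was not tested. Thinning to 1000 UMIs gave 3 of 7 in PEP-619WW CD8 T (47.4% of all genes) and PEP-WT CD4 T cells (51.6%), and unthinned barcodes 7 of 7 in PEP-619WW CD4 T cells (76.1%). The minimum of 5 barcodes behind these shares was met by 7, 4 and 7 members in that order.

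No paired analysis was possible because each run held 1 library per genotype, and no alternative leaves out a library for the same reason. The spread between mice is unknown, NK and *Foxp3* values rest on few barcodes, and genotype cannot be told apart from library.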
